A study of Mus musculus with 4 samples.

Results

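Enzymes that write and erase methyl marks on histones and DNA, or remove acetyl marks from histones, were read in 4T1Br cells, a subline of the mouse breast carcinoma line 4T1 that homes to the brain. The genes were chosen by name: probe sets with a single gene symbol of the Kdm, Kmt2, Kmt5, Setd, Hdac, Sirt, Prmt, Dnmt1, Dnmt3 or Tet families, plus Ezh1, Ezh2, Eed, Suz12, Dot1l, Nsd1, Ehmt1, Ehmt2, Ep300 and Crebbp. This took 78 of the 41345 probe sets on the array, which stood for 76 of 22180 named genes. All 4 arrays carried total RNA of puromycin-selected cells that had received a lentivirus, encoding a control hairpin for 2 arrays (shControl) and a hairpin against YTHDF3 for the other two (shYTHDF3). YTHDF3 is a cytoplasmic reader of N6-methyladenosine in messenger RNA. Titles of the samples name the line 4T1, whereas its own label names 4T1Br. The labels do not say whether arrays of a group came from separate cultures, whether the cells were a clone, or how many hairpins were used, so a p-value here reflects the spread among arrays alone, which may be technical.

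Histone methyltransferases add methyl groups to lysine or arginine residues, and the position decides the usual reading: methylated lysine 4 of histone H3 marks active promoters and enhancers, whereas methylated lysine 9 and lysine 27 mark silent chromatin. Lysine demethylases take these groups off with oxygen and 2-oxoglutarate (the Jumonji enzymes) or with a flavin (Kdm1a and Kdm1b). Deacetylases use zinc (Hdac genes) or NAD (sirtuins), and several of them also act on proteins outside the nucleus. DNA methyltransferases methylate cytosine, and TET dioxygenases oxidise that mark.

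The mRNA that the hairpin targets was lower in shYTHDF3. Ythdf3 read log2 8.98 and 8.81 with the control hairpin and 8.21 and 8.16 with its own. The log2 change was -0.71 (SE 0.10, limma adjusted p = 0.0355). That call was lost with any 1 array left out (change -0.79 to -0.63), without the filter on dim probe sets and with the replicate number as a block (limma adjusted p = 0.0866 and 0.0758). Array medians lay between 4.42 and 4.47. Of the markers fixed for other cells, 0 of 4 leukocyte genes and 1 of 4 endothelial genes lay above background, as did 2 of 4 of glia and neurons. For mammary epithelium it was 5 of 7, with Epcam and Krt14 below it, and for fibroblasts 5 of 6. The log2 values of the epithelial markers summed to 45.0 to 45.2 in shControl and 47.0 to 47.3 in shYTHDF3, and those of the fibroblast markers to 34.2 to 35.2 and 31.7 to 32.0. For glia and neurons the sums were 17.5 to 17.7 and 17.0 to 17.2, while endothelial and leukocyte sums overlapped between groups. At a limma adjusted p under 0.05, 1 of 5 epithelial markers above background was called higher and 2 of 5 fibroblast markers lower. Of the 2 glia and neuron markers above background, 0 were called. All sums include the measured markers under background. The epithelial, fibroblast and glia and neuron sums moved with the groups, and their part in the differences given here was not tested.

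Of the 76 genes, 69 passed the background filter, the level under which 95% of olfactory receptor probe sets lay (log2 4.28), and were tested. By limma with Benjamini-Hochberg adjustment over 13056 genes, 0 of the 69 passed, while 2.73% of all genes tested did (1.28% higher and 1.45% lower). Unadjusted limma p-values under 0.05 were found for 7 of 69 (6 higher and 1 lower in shYTHDF3), a share of 10.1% beside 22.6% of all genes (12.2% higher and 10.4% lower). Those 7 were Kdm5b on the lower side and Sirt1, Hdac6, Sirt2, Hdac10, Setd1b and Dnmt3b on the higher side. When the variance model was allowed to follow expression level (limma's intensity trend), 4 passed at an adjusted p under 0.05, Kdm5b (lower) and Sirt1, Sirt2 and Hdac6 (higher). That is 5.80% of the 69, beside 10.9% of all genes (5.59% higher and 5.33% lower).

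The 4 genes that passed with the intensity trend are shown first by the 250 bases before their annotated start (RefSeq, GRCm38.p6). They are printed 5′ to 3′ to show how these promoters differ in a shared motif core and in CG content. Capitals mark every ACGTG or GCGTG, searched on both strands, so that CACGT and CACGC are marked too. These letters are the core that hypoxia-inducible factors bind, and an ACGTG lies inside the E-box CACGTG.

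Kdm5b, chr1:134559928-134560177, plus strand: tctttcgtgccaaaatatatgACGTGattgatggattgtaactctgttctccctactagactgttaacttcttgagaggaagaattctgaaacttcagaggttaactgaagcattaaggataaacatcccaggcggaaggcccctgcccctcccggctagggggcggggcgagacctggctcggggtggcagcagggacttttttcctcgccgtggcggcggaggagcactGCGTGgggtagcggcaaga
Sirt1, chr10:63339036-63339285, minus strand: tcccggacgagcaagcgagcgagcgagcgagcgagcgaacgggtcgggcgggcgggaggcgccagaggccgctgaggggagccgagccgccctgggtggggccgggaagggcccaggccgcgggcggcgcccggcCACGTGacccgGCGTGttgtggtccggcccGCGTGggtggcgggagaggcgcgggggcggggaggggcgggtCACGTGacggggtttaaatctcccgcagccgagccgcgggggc
Sirt2, chr7:28766502-28766751, plus strand: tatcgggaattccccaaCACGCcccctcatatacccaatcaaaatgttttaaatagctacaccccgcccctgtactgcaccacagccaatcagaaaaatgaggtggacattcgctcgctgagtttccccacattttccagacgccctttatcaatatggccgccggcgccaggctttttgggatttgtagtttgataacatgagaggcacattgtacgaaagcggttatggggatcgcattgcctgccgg
Hdac6, chrX:7947890-7948139, minus strand: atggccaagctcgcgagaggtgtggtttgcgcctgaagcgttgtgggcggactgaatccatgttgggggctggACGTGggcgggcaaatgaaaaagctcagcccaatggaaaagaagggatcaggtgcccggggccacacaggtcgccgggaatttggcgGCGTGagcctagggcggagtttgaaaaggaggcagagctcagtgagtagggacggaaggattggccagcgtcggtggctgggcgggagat

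The Sirt1 window held 4 such stretches, 2 of them a full CACGTG, together with 39 CG dinucleotides. Kdm5b and Hdac6 each had 2 stretches and no CACGTG, with 13 and 17 CG dinucleotides, and Sirt2 had 1 stretch and 13 CG dinucleotides. A match was common: 38.6% of 32851 RefSeq windows of this length held ACGTG or GCGTG and 6.02% held CACGTG. Among the 85 windows of the 64 chosen genes found in that table, 50.6% and 10.6% did. The median CG count was 17 in their windows and 6 over all windows. A match describes letters and is not evidence of binding.

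Kdm5b, a demethylase that removes di- and trimethylation from lysine 4 of histone H3, read 8.27 and 8.25 in shControl, against 7.89 and 7.58 in shYTHDF3. Both shYTHDF3 values lay below both shControl values, although the shYTHDF3 arrays themselves stood 0.31 apart. The log2 change was -0.53 (SE 0.13, 95% interval -0.84 to -0.21), which left 69.3% of the shControl level (limma adjusted p = 0.0896; 0.0170 under the trend). It was the lowest change among the 69.

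Sirt1, a nuclear NAD-dependent deacetylase of histones and transcription factors, read 7.33 on both shControl arrays and 7.68 and 7.71 on those of shYTHDF3. The arrays of each group lay within 0.04 of each other and the groups did not overlap. The log2 change was 0.37 (SE 0.09, 95% interval 0.15 to 0.59; limma adjusted p = 0.0908; 0.0335 under the trend).

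Sirt2, a largely cytoplasmic sirtuin that deacetylates tubulin, read 9.45 and 9.58 in shControl, against 9.82 and 9.83 in shYTHDF3. Its log2 change was 0.31 (SE 0.10, 95% interval 0.07 to 0.55; limma adjusted p = 0.143; 0.0243 under the trend). Hdac6, the other main tubulin deacetylase of the cytoplasm, read 6.67 and 6.56 in shControl, against 6.95 and 7.13 in shYTHDF3. Its change was 0.42 (SE 0.11, 95% interval 0.16 to 0.69; limma adjusted p = 0.0995; 0.0473 under the trend).

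**Figure D1:**
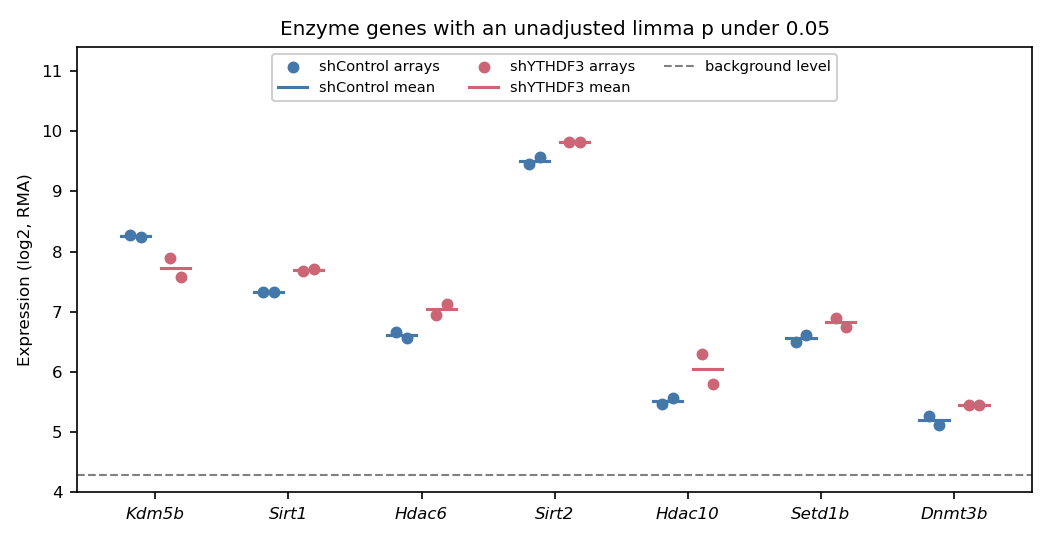
Expression (log2, RMA, vertical axis) of the 7 enzyme genes with an unadjusted limma p under 0.05, 1 point per array and a bar at each group mean (2 arrays a group), with the background level of 4.28 dashed. Kdm5b lies lower in shYTHDF3 and the other 6 lie higher, with no overlap between groups; levels of different genes are not comparable.

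Hdac10, which deacetylates polyamines, showed one of the widest array gaps. It read 5.48 and 5.57 in shControl, against 6.30 and 5.80 in shYTHDF3 (log2 change 0.53, SE 0.17, limma adjusted p = 0.159). Leaving out shYTHDF3 replicate 1 reduced that change to 0.28, and leaving out shYTHDF3 replicate 2 raised it to 0.78. Hdac6 and Hdac10 are the only class IIb deacetylases. Among the class IIa enzymes, signal-dependent partners of MEF2 factors, the 3 tested differed by -0.17 (Hdac4), -0.10 (Hdac7) and 0.16 (Hdac5), with Hdac4 at -0.06 without shControl replicate 2 and -0.28 without shControl replicate 1. The 4 class I enzymes, the catalytic subunits of nuclear corepressor complexes and Hdac8, lay between -0.08 (Hdac1) and 0.15 (Hdac2). Hdac1 read 10.23 and 10.14 in shControl, against 10.10 on both shYTHDF3 arrays, with a 95% interval of -0.31 to 0.15. Hdac11 was read by 2 probe sets that differed in sign, 0.11 on the brighter one and -0.33 on the dimmer one. The dimmer set read 4.86 and 4.39 in shControl, against 4.70 and 3.88 in shYTHDF3, so its arrays overlapped. In all, 7 of the 10 zinc-dependent deacetylases tested read higher and 3 lower, with a median of 0.11.

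The other sirtuins did not share one direction. The mitochondrial Sirt3 read 5.58 and 5.40 in shControl, against 5.32 and 5.14 in shYTHDF3 (log2 change -0.26, SE 0.12, limma adjusted p = 0.249). Sirt5, also mitochondrial and known for removing succinyl and malonyl groups, differed by 0.22, and Sirt4, the remaining mitochondrial sirtuin, by 0.03. Sirt6, a chromatin-bound deacetylase, differed by 0.17 on its single-symbol probe set and the nucleolar Sirt7 by -0.11. A brighter probe set that lists Sirt6 among 5 symbols, and was assigned to no gene, differed by -0.19 without overlap, so the direction of Sirt6 is uncertain. The median of the 7 was 0.17, which is the single-symbol Sirt6 value itself. In 6 of the 7 the groups did not overlap (4 higher, Sirt6 included, and 2 lower). Over all genes tested the share without overlap was 54.0% (28.3% higher and 25.7% lower).

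Lysine demethylases read lower more often than higher, 11 of 15 against 4, with a median of -0.07 and 0 called by limma (Kdm5b alone had an unadjusted p under 0.05). With arrays shifted to a common median the split was 8 lower and 7 higher, so the count of directions rests on differences near 0. These counts leave out Kdm2b, which was read only by a probe set of 2 symbols. That set lay above background and differed by 0.28 without overlap. After Kdm5b, the lowest was Kdm7a, which acts on dimethylated lysines 9 and 27 of histone H3. It read 7.07 and 6.71 in shControl, against 6.42 and 6.64 in shYTHDF3 (log2 change -0.36, SE 0.15, limma adjusted p = 0.238). The gap between the shControl arrays, 0.36, was as large as that change, which was -0.18 without shControl replicate 1 and -0.54 without shControl replicate 2. Another probe set, which lists Kdm7a among 2 symbols and lay under the background (mean 3.99), differed by 0.18. Kdm3a, a hypoxia-induced demethylase of lysine 9, read 8.22 and 8.29 in shControl, against 8.15 and 7.93 in shYTHDF3 (-0.21, SE 0.11, limma adjusted p = 0.315), and stood at -0.11 without shYTHDF3 replicate 2. Kdm5a, with overlapping groups, differed by -0.11, and by -0.02 without shControl replicate 1. Kdm5c differed by -0.15, so all 3 tested genes of the Kdm5 family read lower. Their Y-linked relative Kdm5d lay at 2.64 to 2.99 on the 4 arrays, under the background. Of the lysine 27 demethylases, Kdm6a differed by 0.21 and Kdm6b by -0.02 on its brighter probe set, its other one lying under the background. Kdm1a, the flavin-dependent enzyme LSD1, differed by -0.07 (95% interval -0.30 to 0.15).

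**Figure D2:**
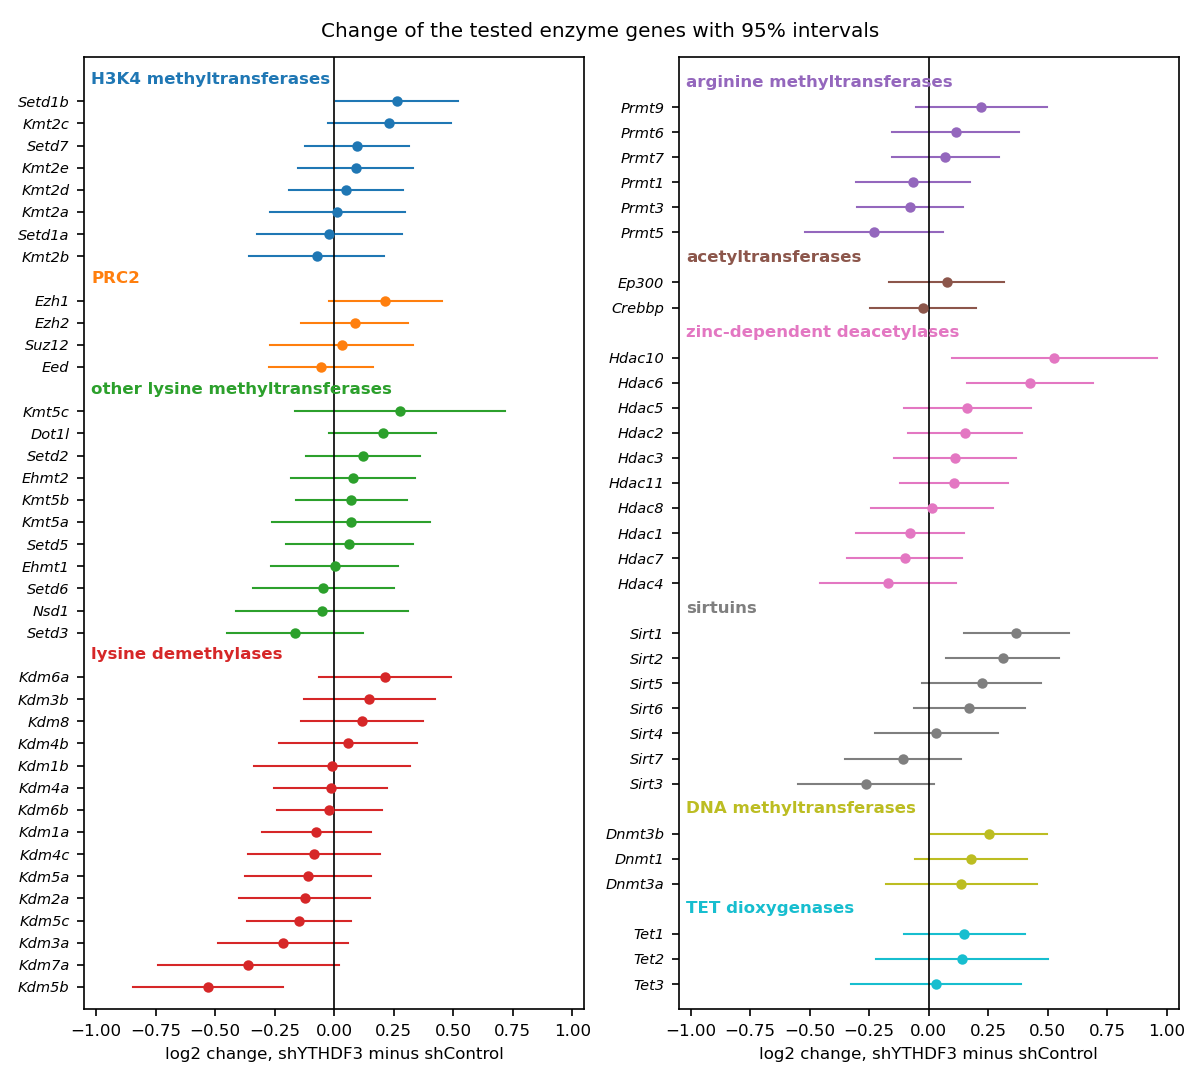
Log2 change, shYTHDF3 minus shControl (horizontal axis), of the 69 enzyme genes tested, by role, with limma's 95% intervals as lines (2 arrays a group). Intervals that leave out 0 are those of Kdm5b, Sirt1, Sirt2, Hdac6, Hdac10, Setd1b and Dnmt3b, and all 69 stay within a change of 1 either way.

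Genes grouped by name as writers of lysine 4 methylation showed small differences. Setd1b, a catalytic subunit of a COMPASS complex, read 6.50 and 6.62 in shControl, against 6.90 and 6.75 in shYTHDF3 (log2 change 0.27, SE 0.10, limma adjusted p = 0.207). Its close relative Setd1a differed by -0.02. Kmt2c, an enhancer-associated methyltransferase, read 6.94 and 6.75 in shControl, against 7.07 and 7.08 in shYTHDF3 (0.23, limma adjusted p = 0.258), and the related Kmt2d differed by 0.05. Setd7, a monomethyltransferase with many non-histone substrates, differed by 0.10. Over the 8 genes, Kmt2e (0.09) included by its name, 6 read higher and 2 lower, with a median of 0.07 and a range of -0.07 (Kmt2b) to 0.27. The median was 0.03 (5 higher and 3 lower) without shControl replicate 2 and 0.12 (7 higher and 1 lower) without shControl replicate 1.

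Of Polycomb repressive complex 2, which methylates lysine 27 of histone H3, the 4 genes chosen by name all lay above background. The catalytic subunit Ezh1 read 8.01 and 7.98 in shControl, against 8.28 and 8.14 in shYTHDF3 (log2 change 0.22, SE 0.10, limma adjusted p = 0.257). Ezh2, the catalytic subunit typical of dividing cells, differed by 0.09 (95% interval -0.14 to 0.31). The scaffold subunits Suz12 and Eed differed by 0.03 and -0.05. Without shControl replicate 2 the median of these 4 genes moved from 0.06 to 0.0012, with 2 genes higher and 2 lower, and Suz12 stood at -0.11.

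Among the other genes grouped by name as lysine methyltransferases, 8 of 11 read higher and 3 lower, with a median of 0.07. Without shControl replicate 2 the median was -0.0027 (5 higher and 6 lower). Dot1l, which methylates the core of histone H3, read 8.40 and 8.38 in shControl, against 8.63 and 8.56 in shYTHDF3 (log2 change 0.20, SE 0.09, limma adjusted p = 0.254). Kmt5c, which methylates lysine 20 of histone H4, differed by 0.28, but its shYTHDF3 arrays read 6.85 and 6.35 and overlapped the shControl values of 6.40 and 6.24. That difference rested on 1 array, being 0.02 without shYTHDF3 replicate 1 and 0.53 without shYTHDF3 replicate 2. Setd3, a methyltransferase of actin rather than histones that was grouped here by name alone, differed by -0.16, and by -0.04 without shYTHDF3 replicate 2. Setd2, which trimethylates lysine 36, differed by 0.12. The lysine 9 enzymes Ehmt1 and Ehmt2 differed by 0.0017 and 0.08, and Nsd1, a lysine 36 dimethyltransferase, by -0.05.

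Protein arginine methyltransferases were divided, 3 higher and 3 lower of 6 tested, with a median of 0.0016. Prmt5, the main symmetric dimethyltransferase, read 10.89 and 10.76 in shControl, against 10.71 and 10.48 in shYTHDF3 (log2 change -0.23, SE 0.12, limma adjusted p = 0.312). It stood at -0.11 without shYTHDF3 replicate 2 and -0.34 without shYTHDF3 replicate 1. Prmt9, another symmetric enzyme, read 5.95 and 5.78 in shControl, against 6.16 and 6.003 in shYTHDF3 (0.22, SE 0.11, limma adjusted p = 0.305). Prmt6 differed by 0.11 with overlapping groups, and Prmt1, the main asymmetric enzyme, by -0.07.

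The paralogous acetyltransferases Ep300 and Crebbp, which oppose the deacetylases, differed by 0.08 (95% interval -0.17 to 0.32) and -0.02 (-0.25 to 0.20). The Crebbp value was 0.0092 after quantile normalization was applied once more. Groups overlapped for both.

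All 3 DNA methyltransferases tested read higher. The de novo enzyme Dnmt3b read 5.27 and 5.12 in shControl, against 5.45 on both shYTHDF3 arrays (log2 change 0.25, SE 0.10, limma adjusted p = 0.209). Dnmt1, the maintenance enzyme, read 10.67 and 10.63 in shControl, against 10.88 and 10.77 in shYTHDF3 (0.18, SE 0.10, limma adjusted p = 0.336). Dnmt3a read 6.40 and 6.09 in shControl, against 6.36 and 6.41 in shYTHDF3, so its groups overlapped. Its difference was 0.14, and -0.02 without shControl replicate 2. The TET genes differed by 0.15 (Tet1), 0.14 (Tet2) and 0.03 (Tet3), and by 0.10, -0.04 and -0.12 without shControl replicate 2. Tet1 stood at 0.08 without shYTHDF3 replicate 1.

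The 69 genes as a list had a median change of 0.06, beside 0.0057 for all genes tested. Of the 69, 43 read higher and 26 lower, beside 6662 higher and 6394 lower of all 13056. The list median moved with single arrays, to 0.0072 without shControl replicate 2, 0.11 without shControl replicate 1 and 0.04 without shYTHDF3 replicate 1. With 1 array left out, 22 of the 69 turned sign, each of them differing by at most 0.14 in size with all arrays. The median absolute change was 0.11, beside 0.15 for all genes tested. The difference between group means exceeded the larger gap between arrays of a group in 24 of the 69 genes, 34.8%, beside 42.4% of all genes. Groups did not overlap in 38 of them, 55.1%, beside 54.0%. Every one of the 69 intervals stayed within 2-fold either way, beside 97.2% of all genes, and 63 (91.3%) stayed within 1.5-fold, beside 76.2%. The exceptions to the narrower bound were Kdm5b, Kdm7a, Kmt5c, Hdac6, Hdac10 and Sirt1. A missed threshold at 2 arrays a group does not show equal levels, and the intervals give what the data allow.

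**Figure D3:**
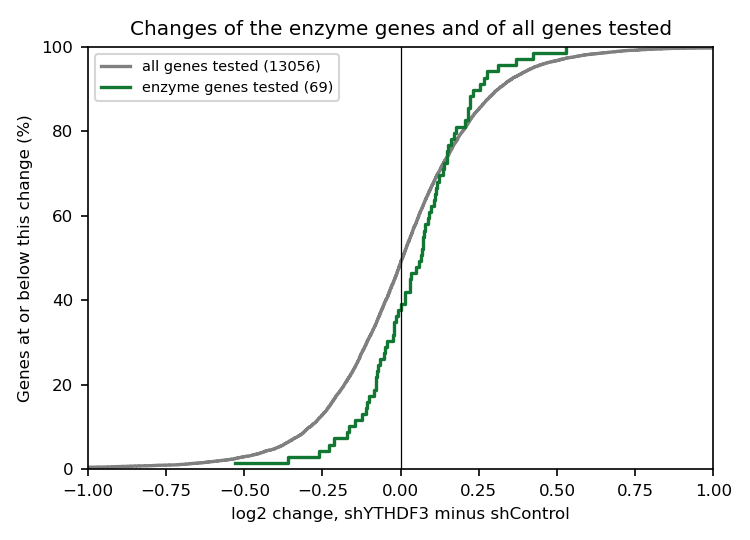
Share of genes (%, vertical axis) at or below each log2 change, shYTHDF3 minus shControl (horizontal axis), for the 69 enzyme genes and all 13056 genes tested. The enzyme curve runs from -0.53 to 0.53 and crosses 0 lower than the curve of all genes, 26 of 69 genes being lower in shYTHDF3.

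**Figure D4:**
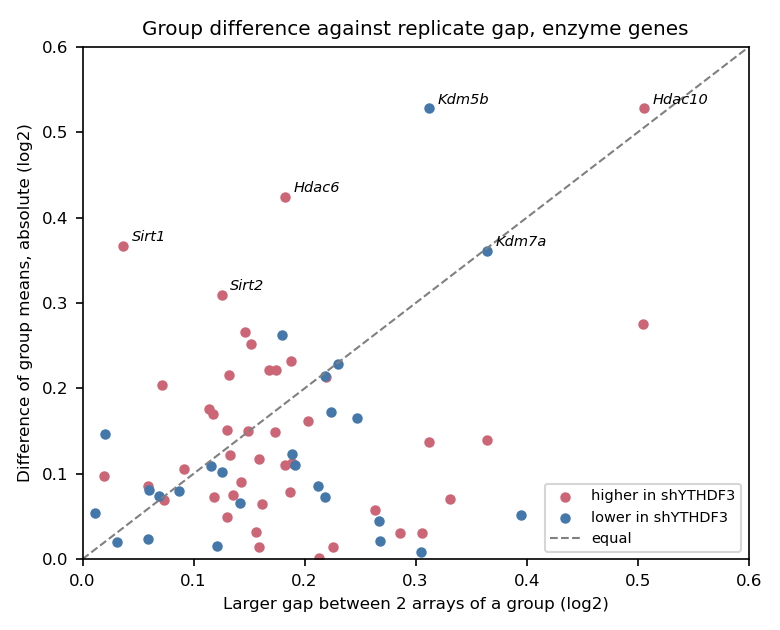
Absolute difference of group means (log2, vertical axis) against the larger gap between the 2 arrays of a group (log2, horizontal axis), 1 point per enzyme gene tested, coloured by direction; the dashed line marks equality. Above the line lie 24 of 69 genes, with Sirt1 at a gap of 0.04 and Hdac10 at one of 0.51.

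The other 7 genes lay under the background and were not tested. They were Setd4, Dnmt3l, Prmt8, Kdm4d, Hdac9, Kdm5d and the antisense RNA gene Dnmt3aos, which the name rule also took. Setd4, the nearest below the filter, had a mean of 4.23, and Tet1, the nearest above, 4.42. A further 4 probe sets matched the names only through 1 of several symbols and were left out. They list Kdm2b, Prmt2, Sirt6 and Kdm7a. Kdm2b and Prmt2 had no single-symbol probe set, so they are in no count or median given here. Their sets lay above background and differed by 0.28 and -0.13, both without overlap.

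Partners, readers and related enzymes were drawn from a list of textbook members, 97 of which had a probe set with a single symbol. Of 93 tested, 0 passed limma's adjusted threshold. Unadjusted p-values under 0.05 went to 13 higher and 6 lower genes (20.4% beside 22.6% of all genes), and 9 passed with an intensity trend (5 higher and 4 lower, 9.68% beside 10.9%). The list median was 0.04. Its largest differences included Ncoa1, a nuclear receptor coactivator, which read 6.42 and 6.11 in shControl, against 6.86 and 7.02 in shYTHDF3 (log2 change 0.67, SE 0.14, limma adjusted p = 0.0653; 0.0161 under the trend). Phf1, a partner of Polycomb repressive complex 2, differed by 0.54 (limma adjusted p = 0.113; 0.0396 under the trend). Nmnat1, which makes NAD in the nucleus, differed by 0.46 (limma adjusted p = 0.112; 0.0621 under the trend).

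On the lower side stood the Jumonji-family genes Phf8, a demethylase of lysine 9 and of histone H4 lysine 20, and Hspbap1. Phf8 read 6.52 and 6.35 in shControl, against 5.90 and 6.02 in shYTHDF3 (log2 change -0.47, SE 0.11, limma adjusted p = 0.0788; 0.0471 under the trend). Hspbap1 read 7.47 and 7.39 in shControl, against 6.99 and 6.94 in shYTHDF3 (-0.46, SE 0.09, limma adjusted p = 0.0637; 0.0195 under the trend). Wdr77, the obligate partner of Prmt5, read 9.33 and 9.28 in shControl, against 9.02 and 8.88 in shYTHDF3. Its change was -0.36 (SE 0.10, limma adjusted p = 0.117; 0.0201 under the trend).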

How the data were processed

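Total RNA from 4 samples was hybridised to Affymetrix arrays. The deposited values are log2 expression per probe set, which the authors produced with RMA according to the submitters' processing notes (version not given in the sources used here); the log base was taken as 2 from the range of the values. RMA makes array distributions alike, so a shift of most genes one way would not be seen. Of 41345 probe sets, 23521 had 1 symbol in the platform annotation, and 23328 of these took their current symbol from RefSeq by Entrez identifier. A gene's value was its brightest probe set.

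Genes with a mean above the 95th percentile of 1108 olfactory receptor probe sets (log2 4.28), 13056 in all, were compared with limma 3.58.1 (lmFit, eBayes) in R 4.3.3, with two-sided p-values adjusted over all of them by Benjamini-Hochberg and called under 0.05. Intervals use limma's moderated SE. The number of arrays limits the precision. Steps were tested on simulated data. The genes, lists and tests were chosen with earlier results of these data known. Genes named were Ythdf3, those past the threshold with or without an intensity trend, the 3 largest absolute changes in each role, genes whose probe sets differ in sign, and, of the partner list, those past the threshold and the 3 largest changes each way; a few others were named for their role, after their values were seen. Alternatives were 2 other filters, an intensity trend (alone and with robust estimation), repeated quantile normalization, a common median, the mean of a gene's probe sets, the replicate number as a block, and each array left out. Figures used matplotlib 3.10.9.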

Additional observations from a re-analysis of the deposited data

How the results depend on the processing

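Depth does not apply to arrays; 2 arrays a group set the limits. Deviations of same-numbered arrays from their group means correlated at -0.066 over 13056 genes. With 2 arrays a group this cannot show whether the replicate numbers pair the arrays. The replicate block, which leaves fewer degrees of freedom, gave 51 calls over all genes beside 356 without it. Ythdf3 then stood at -0.71 (limma adjusted p = 0.0758). Calls over all genes numbered 43 without the filter, where Ythdf3 stood at -0.71 (limma adjusted p = 0.0866), 1426 with an intensity trend and 1465 with robust estimation added. With 1 array left out they ran from 0 to 12, Ythdf3 from -0.79 to -0.63, and the median of the enzyme genes from 0.0072 to 0.11. In these fits the lone array was assumed to vary like the other group. Of the enzyme genes, 4 were called with an intensity trend, with or without robust estimation, and 0 under each other alternative. Of the partner genes it was 9 and 9, and 1 (Hspbap1) after repeated quantile normalization. The median of the enzyme genes was 0.084 with a common median, beside 0.026 for all genes tested (0.064 and 0.0057 in the main fit). Signs of lysine demethylases turned with a common median (7 higher and 8 lower, beside 4 and 11) and after repeated quantile normalization (5 and 10). Of the genes named for size, threshold or probe sets, signs turned for Crebbp (0.0092) after repeated quantile normalization and Hdac11 (-0.11) with probe-set means. With 1 array left out they turned for 22 of the 69 enzyme genes, among them Dnmt3a (-0.019 to 0.29), Tet2 (-0.043 to 0.32), Tet3 (-0.12 to 0.18) and Crebbp (-0.053 to 0.0061). The cause was not tested.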
